A study of Mus musculus with 6 samples.

Results

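Helper T cells take on different functions under the control of a small set of transcription factors. The levels of 9 of them, the genes Tbx21, Eomes, Gata3, Rora, Foxp3, Bcl6, Prdm1, Maf and Ahr, are described here in antigen-specific CD4 T cells 14 h after antigen was delivered to dendritic cells. The genes were taken by name. Each was read from the probe set that names only that gene and has the highest mean over the 6 arrays. Gene positions are those of RefSeq on GRCm38.p6. All 9 were measured, each by 1 such probe set, among 19938 genes in all.

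The mice were female NOD animals, a strain prone to autoimmune diabetes, at 7 weeks of age, and their spleens were used. All mice had received transferred BDC2.5 T cells, which carry a T cell receptor for a pancreatic beta cell antigen. The tested mice were given intravenously 100 ng of an antibody against DCIR2 or against DEC205, each linked to the BDC antigen (anti-DCIR2-BDC and anti-DEC205-BDC), and the control mice received PBS. DCIR2 and DEC205 mark different dendritic cell subsets. As no mice were given an antibody free of antigen, what the antigen did and what the antibody did cannot be told apart against PBS. At 14 h the transferred cells were isolated by their Thy1.1+CD4+ phenotype. Each of the 3 groups had 2 Affymetrix arrays, labelled biological duplicates, and the labels do not give the number of mice behind each array. Values are log2 expression, and arrays 1 and 2 of each group are named by their group.

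T-bet (the product of Tbx21) and the related T-box factor Eomes direct Th1 and cytotoxic functions, among them interferon gamma production. GATA3 directs Th2 cells and is also needed for CD4 T cell development. ROR alpha, encoded by Rora, supports Th17 differentiation, and Foxp3 defines regulatory T cells. Bcl6 directs follicular helper T cells, and Blimp-1, the product of Prdm1, represses Bcl6 and is a mark of differentiated effector cells. c-Maf drives Il4, Il10 and Il21 in several helper subsets. The aryl hydrocarbon receptor, encoded by Ahr, is a ligand-activated factor that acts in Th17 and IL-10-producing T cells.

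The arrays had medians between 5.43 and 5.56 on the log2 scale, and the arrays of a group correlated at 0.974 to 0.982 (Pearson, over probe sets, which are no independent replicates). As a description of the dim end of the arrays, 1027 olfactory receptor genes, which T cells are not known to use, had means with a median of 3.74 and a 95% point of 5.23. The mean of Prdm1 over the 6 arrays, 4.64, lay below that 95% point, and those of the other members lay above it, from 5.71 for Rora to 8.41 for Gata3. Prdm1 is therefore the member whose values are least clear of the dim end. These positions describe probe sets and do not rank the amounts of the transcripts.

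The T cell label was checked with marker genes. Cd3e, a chain of the T cell receptor complex, had 11.16 and 11.45 in anti-DCIR2-BDC arrays, 11.57 and 11.71 in anti-DEC205-BDC arrays, and 11.96 and 12.12 in PBS arrays. Cd4 was likewise bright, between 9.91 and 10.74 in all 6 arrays. Of the marker lists for other cells, 2 of 4 CD8 T cell, 4 of 8 natural killer cell, 5 of 8 B cell, 3 of 7 plasma cell and 7 of 14 macrophage and dendritic cell genes had means below the olfactory 95% point. The natural killer receptor genes Ncr1 and Klrb1c stayed at 4.55 and below in all 6 arrays, and the B cell gene Ms4a1 at 4.23 and below. Other genes of these lists were brighter, among them Nkg7 (7.44 to 8.32) and Prf1 (6.50 to 7.59), which cytotoxic T cells also express, Klrd1 (4.79 to 7.62) and the B cell gene Cd79b (5.51 to 6.27).

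**Figure D1:**
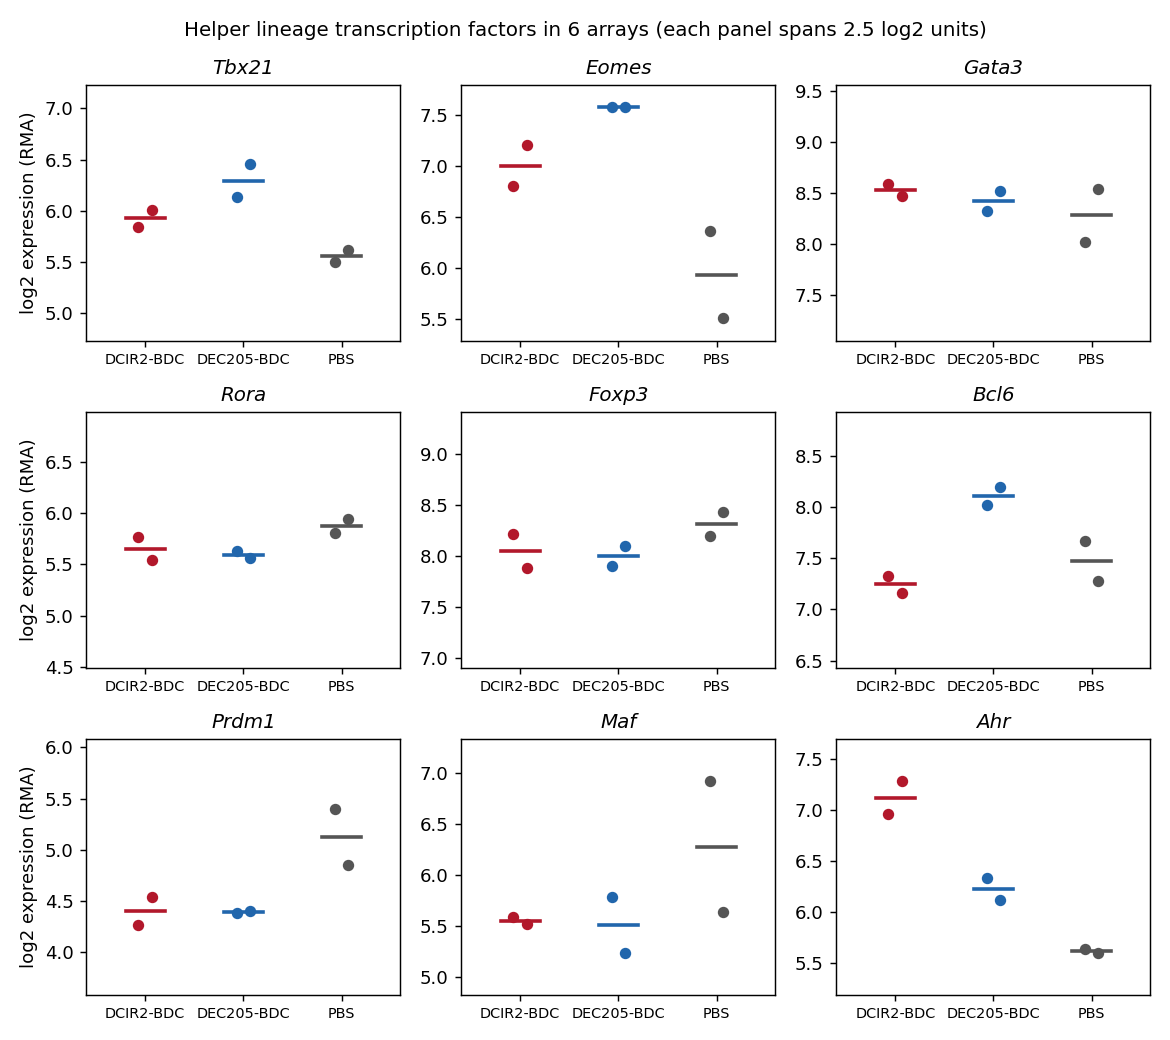
Log2 expression (vertical axis, each panel spanning the same width) of the 9 factors in the anti-DCIR2-BDC, anti-DEC205-BDC and PBS groups; points are arrays 1 and 2 and bars are group means. Ahr lies between 6.96 and 7.28 after anti-DCIR2-BDC, 6.12 and 6.33 after anti-DEC205-BDC and 5.60 and 5.64 after PBS, and the Eomes arrays of both antibody groups lie above both PBS arrays.

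The first comparisons asked which lineage factors changed in the T cells after each antigen-carrying antibody, against PBS. After anti-DCIR2-BDC Ahr and Eomes rose and Prdm1 fell. After anti-DEC205-BDC Eomes and Tbx21 rose and Prdm1 fell. Thus 2 of 9 members rose after anti-DCIR2-BDC, where 10.1% of all 19938 genes rose, and 1 of 9 fell, where 7.82% of all genes fell (limma, adjusted p under 0.05). After anti-DEC205-BDC 2 of 9 members rose, against 5.32% of all genes, and 1 of 9 fell, against 3.53%. The median change of the members was -0.22 after anti-DCIR2-BDC and 0.14 after anti-DEC205-BDC, beside -0.05 over all genes after anti-DCIR2-BDC and -0.03 after anti-DEC205-BDC. The median size of a change, whatever its direction, was 0.37 for the members and 0.20 for all genes after anti-DCIR2-BDC, and 0.63 for the members and 0.17 for all genes after anti-DEC205-BDC. The arrays of the groups did not overlap for 6 of 9 members after anti-DCIR2-BDC, beside 55.3% of all genes, and for 7 of 9 after anti-DEC205-BDC, beside 48.8%. Both comparisons share the PBS arrays.

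**Figure D2:**
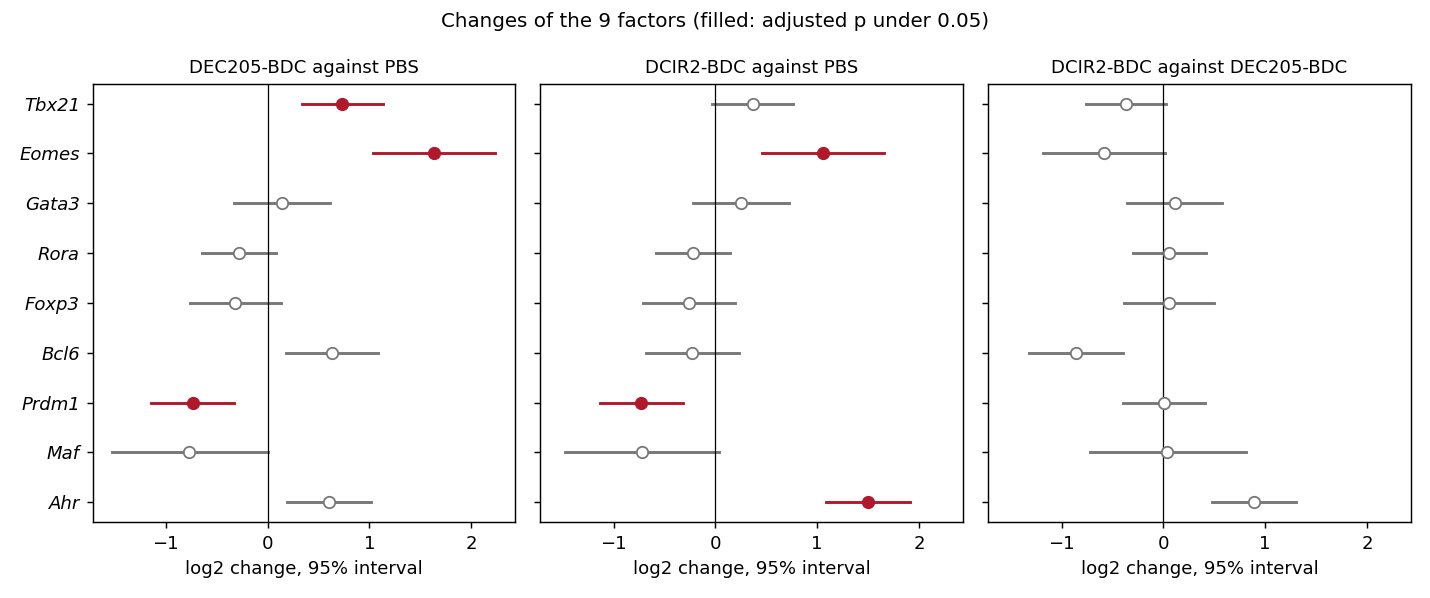
Log2 change (horizontal axis) of each factor with its 95% interval in the 3 comparisons; filled red points passed at an adjusted p under 0.05 and open grey points did not. Ahr after anti-DCIR2-BDC (1.50) and Eomes after anti-DEC205-BDC (1.64) are the largest changes drawn, and no point is filled between the antibodies.

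Ahr, the aryl hydrocarbon receptor gene (chr12:35497979-35534989), had 6.96 and 7.28 in anti-DCIR2-BDC arrays, 6.33 and 6.12 in anti-DEC205-BDC arrays, and 5.64 and 5.60 in PBS arrays. Its levels stood in the order anti-DCIR2-BDC, anti-DEC205-BDC, PBS, with no overlap between any groups. Ahr rose 2.82-fold after anti-DCIR2-BDC (log2 change 1.50, standard error 0.19, limma adjusted p = 0.000338). That call was kept in all 17 alternative settings, in which the change was between 1.34 and 1.65. After anti-DEC205-BDC the change was 0.60 (standard error 0.19), 1.52-fold higher, and did not pass (adjusted p = 0.0758). Quantile normalization brought it past the threshold (adjusted p = 0.0436), as did removal of the dimmest 50% of genes (0.04965), and the other alternatives reached up to 0.282. The genes most like Ahr in their values centred on their own mean were the splicing factor gene Sf3a1 and the COP9 signalosome gene Cops2, each at a Euclidean distance of 0.27 over the 6 arrays, and the nuclear transport gene Xpo4, at 0.30.

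Eomes, the T-box factor of cytotoxic and memory T cells (chr9:118478186-118486132), had 6.80 and 7.20 in anti-DCIR2-BDC arrays, 7.57 and 7.57 in anti-DEC205-BDC arrays, and 6.36 and 5.51 in PBS arrays. Both antibody groups lay above PBS, whose arrays were far apart. Eomes rose 3.11-fold after anti-DEC205-BDC (log2 change 1.64, standard error 0.27, adjusted p = 0.00494) and 2.09-fold after anti-DCIR2-BDC (1.06, standard error 0.27, adjusted p = 0.0197). After anti-DEC205-BDC it was lost when every probe set was tested (adjusted p = 0.0654), range 0.00187 to 0.0654 over the alternatives. After anti-DCIR2-BDC it was lost without PBS array 2 (change 0.64, adjusted p = 0.139), without DCIR2 array 1 (0.0507), without DCIR2 array 2 (0.177) and in the test of all probe sets (0.102), and its lowest adjusted p was 0.0036. The nearest genes in pattern were the respiratory chain gene Ndufb6 (distance 0.44), the centromere gene Cenpw (0.58) and the proteasome assembly gene Pomp (0.61).

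Tbx21, which encodes T-bet (chr11:97098007-97115331), had 5.84 and 6.01 in anti-DCIR2-BDC arrays, 6.13 and 6.46 in anti-DEC205-BDC arrays, and 5.50 and 5.62 in PBS arrays. The order was anti-DEC205-BDC, anti-DCIR2-BDC, PBS, with no overlap between neighbours. Tbx21 rose 1.66-fold after anti-DEC205-BDC (log2 change 0.73, standard error 0.18, adjusted p = 0.0288). Leaving out PBS array 1 (adjusted p = 0.137) or PBS array 2 (0.0737) ended the call. So did leaving out DEC205 array 2 (0.17), DCIR2 array 1 (0.0534) or DCIR2 array 2 (0.0528), testing every probe set (0.11) and fitting only the 4 arrays compared (0.0531). The lowest adjusted p among the alternatives was 0.0148. After anti-DCIR2-BDC the change was 0.37 with a 95% interval of -0.03 to 0.76 (adjusted p = 0.213). Its nearest genes in pattern were Chst15 (distance 0.16), Plxna3 (0.23) and Tmem107 (0.24).

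Prdm1, which encodes Blimp-1 (chr10:44437174-44528558), had 4.26 and 4.54 in anti-DCIR2-BDC arrays, 4.38 and 4.40 in anti-DEC205-BDC arrays, and 5.40 and 4.85 in PBS arrays. The antibody groups overlapped with each other and both lay below PBS. Only PBS array 1 lay above the olfactory 95% point of 5.23, so the fall described next lies largely within the dim end of the arrays. Prdm1 fell by 0.73 on the log2 scale after anti-DCIR2-BDC (standard error 0.18, adjusted p = 0.0188) and by 0.73 after anti-DEC205-BDC (standard error 0.18, adjusted p = 0.0328). After anti-DCIR2-BDC the call was lost without PBS array 1 (change -0.45, adjusted p = 0.137), without DCIR2 array 1 (0.161) and in the test of all probe sets (0.1), and its lowest adjusted p was 0.00447. After anti-DEC205-BDC it was lost in 9 of 15 alternatives, among them those without PBS array 1 (change -0.46, adjusted p = 0.193), DEC205 array 1 (0.105), DEC205 array 2 (0.103), DCIR2 array 1 (0.0554) or DCIR2 array 2 (0.0552), with a lowest adjusted p of 0.0104. Its nearest genes were Enpp5 and Zfp110 (distance 0.21 each) and Mtmr12 (0.24).

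The promoters of 3 of the 4 members that passed are shown, since each of these genes changed against PBS in at least 1 comparison. RefSeq promoters (GRCm38.p6) matched 7 of the 9 members, and there was none for Ahr and Maf. Each sequence is the 250 bases before the start of a RefSeq transcript, 5′ to 3′ on the strand of the gene, at chr11:97115332-97115581 (minus strand) for Tbx21, chr9:118477939-118478188 (plus strand) for Eomes and chr10:44458749-44458998 (minus strand) for Prdm1. The Prdm1 window lies inside the gene's interval, ahead of an internal transcript start, and not at the outer end of the gene. Capitals mark matches on either strand to GGAAA (the NFAT core), TGANTCA (AP-1), TGANNTCA (a longer AP-1 or CRE form) or the IRF element, a pair of GAAA runs 2 bases apart.
Tbx21: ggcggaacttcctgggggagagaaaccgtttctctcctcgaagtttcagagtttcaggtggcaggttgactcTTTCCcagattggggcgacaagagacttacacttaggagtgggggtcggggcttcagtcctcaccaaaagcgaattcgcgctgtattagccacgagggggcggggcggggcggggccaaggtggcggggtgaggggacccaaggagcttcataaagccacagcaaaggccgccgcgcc
Eomes: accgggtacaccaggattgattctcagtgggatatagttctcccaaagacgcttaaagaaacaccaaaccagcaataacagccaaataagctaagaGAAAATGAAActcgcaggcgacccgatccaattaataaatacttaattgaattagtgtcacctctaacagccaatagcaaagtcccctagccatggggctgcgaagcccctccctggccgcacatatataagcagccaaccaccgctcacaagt
Prdm1: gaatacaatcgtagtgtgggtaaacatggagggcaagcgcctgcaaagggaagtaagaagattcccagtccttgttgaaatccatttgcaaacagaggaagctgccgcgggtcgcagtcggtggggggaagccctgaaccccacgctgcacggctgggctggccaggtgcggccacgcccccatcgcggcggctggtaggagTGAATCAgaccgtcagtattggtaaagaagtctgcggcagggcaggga
Tbx21 had 1 match to GGAAA, on the other strand, which 55.6% of all 32851 promoters of this length hold. Eomes had 1 match to the IRF element, held by 3.0% of all promoters. Prdm1 had 1 match to TGANTCA, held by 6.7%. None of the 3 windows held TGANNTCA, which 11.9% of promoters hold. No motif was found in more than 1 of these 3 windows.

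Maf, which encodes c-Maf (chr8:115703253-115706894), had 5.59 and 5.52 in anti-DCIR2-BDC arrays, 5.79 and 5.24 in anti-DEC205-BDC arrays, and 6.92 and 5.64 in PBS arrays. PBS array 1 stood alone, and the other 5 arrays lay between 5.24 and 5.79. The change was -0.72 after anti-DCIR2-BDC (standard error 0.34, adjusted p = 0.204) and -0.77 after anti-DEC205-BDC (standard error 0.34, adjusted p = 0.238). Without PBS array 1 these changes were -0.08 after anti-DCIR2-BDC and -0.12 after anti-DEC205-BDC. Without PBS array 2 they were -1.36 after anti-DCIR2-BDC (adjusted p = 0.00513) and -1.41 after anti-DEC205-BDC (0.0107), and passed.

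Bcl6, the factor of follicular helper cells (chr16:23965050-23988866), had 7.33 and 7.16 in anti-DCIR2-BDC arrays, 8.02 and 8.20 in anti-DEC205-BDC arrays, and 7.67 and 7.28 in PBS arrays. Only the anti-DEC205-BDC arrays stood apart, above all others, and those of anti-DCIR2-BDC and PBS overlapped. Its change after anti-DEC205-BDC was 0.63 with a 95% interval of 0.18 to 1.09 and did not pass (adjusted p = 0.0946), except after removal of the dimmest 50% of genes (0.04997). After anti-DCIR2-BDC it was -0.23 with an interval of -0.68 to 0.23 (adjusted p = 0.555), at -0.03 without PBS array 1 and -0.43 without PBS array 2. Since Blimp-1 represses Bcl6, the log2 level of Prdm1 minus that of Bcl6 was also followed in each array, set to a mean of 0 in PBS. This difference was -0.72 and -0.28 in anti-DCIR2-BDC arrays, -1.29 and -1.45 in anti-DEC205-BDC arrays, and 0.08 and -0.08 in PBS arrays, and was not tested. All 4 antibody arrays of Prdm1 lay below the olfactory 95% point of 5.23, and so did its PBS array 2 (4.85). A further fall may therefore not be measurable, and these differences are limited by the dim end of the arrays.

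Gata3, the Th2 factor (chr2:9857078-9887953), had 8.59 and 8.47 in anti-DCIR2-BDC arrays, 8.32 and 8.52 in anti-DEC205-BDC arrays, and 8.02 and 8.54 in PBS arrays, so that all groups overlapped. Its change was 0.25 after anti-DCIR2-BDC (95% interval -0.22 to 0.72) and 0.14 after anti-DEC205-BDC (-0.33 to 0.61). Foxp3, the regulatory T cell factor (chrX:7579676-7595243), had 8.22 and 7.89 in anti-DCIR2-BDC arrays, 7.90 and 8.10 in anti-DEC205-BDC arrays, and 8.20 and 8.43 in PBS arrays. Its change was -0.26 after anti-DCIR2-BDC (95% interval -0.71 to 0.19, adjusted p = 0.472) and -0.32 after anti-DEC205-BDC (-0.76 to 0.13, adjusted p = 0.44), where both arrays lay below both PBS arrays. Rora (chr9:68653404-69388246) had 5.77 and 5.54 in anti-DCIR2-BDC arrays, 5.63 and 5.56 in anti-DEC205-BDC arrays, and 5.81 and 5.94 in PBS arrays. Its range over the 6 arrays, 0.40, was the smallest among the members, beside 0.54 for Foxp3 and 0.56 for Gata3. The changes of Rora were -0.22 (95% interval -0.58 to 0.14) after anti-DCIR2-BDC and -0.28 (-0.64 to 0.08) after anti-DEC205-BDC. Over the alternatives the change of Foxp3 ran from -0.45 (quantile normalization) to -0.10 (without DCIR2 array 2) after anti-DCIR2-BDC and from -0.43 (without PBS array 1) to -0.20 (without PBS array 2) after anti-DEC205-BDC. That of Rora after anti-DCIR2-BDC ran from -0.34 (without DCIR2 array 1) to -0.11 (without DCIR2 array 2), and that of Gata3 there from -0.01 (without PBS array 1) to 0.51 (without PBS array 2). None of these 3 genes passed in either comparison, and the intervals leave out changes of 2-fold in either direction. Rora and Foxp3 were the closest pair of members in pattern (distance 0.21), and Eomes and Maf the farthest apart (2.57).

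The next comparison asked whether the factors differed between the antibodies. No member passed between anti-DCIR2-BDC and anti-DEC205-BDC (0 of 9 in limma, and 0 in each of the 17 alternatives), where 0.0201% of all genes were higher and 0% lower, that is 4 of 19938 genes. At an unadjusted p under 0.05 there were 2 of 9 members, Ahr and Bcl6, beside 10.2% of all genes, and their differences had opposite signs. Ahr had a log2 difference of 0.89 (1.86-fold, 95% interval 0.48 to 1.30, adjusted p = 0.18) and stood at rank 68 of all genes by p. Bcl6 had a log2 difference of -0.86 (95% interval -1.32 to -0.40, adjusted p = 0.223), at rank 159. The arrays did not overlap for these genes, nor for Eomes (difference -0.58, interval -1.18 to 0.02) and Tbx21 (-0.37, interval -0.76 to 0.03), 4 of 9 members beside 40.2% of all genes. For Prdm1 the difference was 0.01 with an interval of -0.40 to 0.41. For Foxp3, Rora, Maf and Gata3 it was 0.06, 0.06, 0.04 and 0.11. The adjusted p of Ahr ran from 0.0926 to 0.571 and that of Bcl6 from 0.111 to 0.624 over the alternatives.

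Genes of the programs that these factors direct were followed next, in lists chosen with earlier results known, so that their counts are a description. The counts of these lists and of the later marker lists stand beside the shares of all genes. After anti-DCIR2-BDC 10.1% of all genes rose and 7.82% fell, and after anti-DEC205-BDC 5.32% rose and 3.53% fell. Of 15 Th1 genes, 6 rose and 5 fell after anti-DCIR2-BDC, and 2 rose and 2 fell after anti-DEC205-BDC. The chemokine gene Xcl1 rose in both (log2 change 3.33 after anti-DCIR2-BDC, 2.06 after anti-DEC205-BDC), as did Tnf (2.20 after anti-DCIR2-BDC, 1.77 after anti-DEC205-BDC), and the IL-18 receptor gene Il18r1 fell in both (-2.81 after anti-DCIR2-BDC, -1.97 after anti-DEC205-BDC). The chemokine gene Ccl3 rose after anti-DCIR2-BDC (2.52, adjusted p = 0.00488) and stood at 1.21 after anti-DEC205-BDC (adjusted p = 0.189). That rise of Ccl3 was lost without DCIR2 array 2 or with every probe set, at an adjusted p of up to 0.0716. The median of the list was 0.30 after anti-DCIR2-BDC and 0.31 after anti-DEC205-BDC.

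Of 11 Th2 genes, 1 rose and 0 fell after each antibody, the chemokine receptor gene Ccr8, with a log2 change of 2.49 after anti-DCIR2-BDC and 1.19 after anti-DEC205-BDC (adjusted p = 0.0479). The second of these calls was lost in 9 of 17 alternatives, among them leaving out DEC205 array 1 (adjusted p = 0.0665), DEC205 array 2 (0.203), PBS array 1 (0.218) or PBS array 2 (0.0757). Il5 (-0.23 after anti-DCIR2-BDC, -0.51 after anti-DEC205-BDC), Ccr4 (-0.62 after anti-DCIR2-BDC, -0.45 after anti-DEC205-BDC) and Il4ra (-0.54 after anti-DCIR2-BDC, -0.26 after anti-DEC205-BDC) did not pass after either antibody. The median of the list was 0.14 after anti-DCIR2-BDC and 0.16 after anti-DEC205-BDC. Both PBS arrays of Ccr8 lay below the olfactory 95% point of 5.23, so its rise starts within the dim end of the arrays. Il4, Il5 and Il10 lay below that point in all 6 arrays. A change of these genes may therefore not be measurable, and the counts and the median of the list are limited by this.

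Of 9 Th17 genes, 3 rose and 2 fell after anti-DCIR2-BDC, and 0 rose and 1 fell after anti-DEC205-BDC. The cytokine gene Il17a had 7.01 and 6.34 in anti-DCIR2-BDC arrays, 5.38 and 5.91 in anti-DEC205-BDC arrays, and 5.50 and 5.24 in PBS arrays, and rose after anti-DCIR2-BDC (log2 change 1.30, adjusted p = 0.00431). Il21 had 6.25 and 5.52 in anti-DCIR2-BDC arrays, 5.45 and 5.10 in anti-DEC205-BDC arrays, and 4.58 and 4.45 in PBS arrays, and also rose after anti-DCIR2-BDC (1.38, adjusted p = 0.00182). Il17f rose there too (0.74, adjusted p = 0.0221), a call lost in 4 of 16 alternatives, among them leaving out DCIR2 array 1 (change 0.47, adjusted p = 0.176), PBS array 1 (0.0743) or PBS array 2 (0.087). After anti-DEC205-BDC the changes of Il17a, Il21 and Il17f were 0.27, 0.76 and -0.07, and none passed. In PBS arrays Il21 lay below the olfactory 95% point of 5.23. Il17a and Il17f (5.30 and 5.26) lay little above it there, so the changes of these 3 genes start near the dim end. The differences between the antibodies, 1.03 for Il17a, 0.61 for Il21 and 0.81 for Il17f, did not pass either (adjusted p = 0.225, 0.405 and 0.223). Il6ra, an IL-6 receptor chain, fell after both (-1.22 after anti-DCIR2-BDC, -0.96 after anti-DEC205-BDC), the second call being lost with every probe set (adjusted p = 0.0536).

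Of 18 regulatory T cell genes, 4 rose and 2 fell after anti-DCIR2-BDC, and 4 rose and 0 fell after anti-DEC205-BDC. The members that rose in both, Tnfrsf4 (log2 change 2.64 after anti-DCIR2-BDC, 1.55 after anti-DEC205-BDC), Tnfrsf9 (2.36 after anti-DCIR2-BDC, 3.14 after anti-DEC205-BDC) and the IL-2 receptor gene Il2ra (2.33 after anti-DCIR2-BDC, 1.69 after anti-DEC205-BDC), are also known as activation genes of conventional T cells. Tigit rose after anti-DCIR2-BDC (1.25) and stood at 0.29 after anti-DEC205-BDC. The median of the list was -0.08 after anti-DCIR2-BDC and 0.20 after anti-DEC205-BDC.

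Of 16 follicular helper genes, 4 rose and 3 fell after anti-DCIR2-BDC, and 3 rose and 2 fell after anti-DEC205-BDC. The surface protein gene Cd200 (log2 change 2.94 after anti-DCIR2-BDC, 2.23 after anti-DEC205-BDC) and the coactivator gene Pou2af1 (2.08 after anti-DCIR2-BDC, 1.88 after anti-DEC205-BDC) rose after both, as did the inhibitory receptor gene Pdcd1 (adjusted p = 0.00669 after anti-DCIR2-BDC, 0.0471 after anti-DEC205-BDC). Pdcd1 was lost after anti-DCIR2-BDC without DCIR2 array 1 (adjusted p = 0.0826) or in the test of all probe sets (0.0564). After anti-DEC205-BDC it was lost in 9 of 17 alternatives, among them leaving out PBS array 2 (change 0.65, adjusted p = 0.25), DEC205 array 1 (0.0633), DEC205 array 2 (0.219), DCIR2 array 1 (0.069) or DCIR2 array 2 (0.0694). The median of the list was -0.08 after anti-DCIR2-BDC and 0.13 after anti-DEC205-BDC.

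Of 32 partner and opposing transcription factors, 5 rose and 7 fell after anti-DCIR2-BDC, and 5 rose and 3 fell after anti-DEC205-BDC. Irf4, which acts with BATF at AP-1 sites and is needed for several helper fates, rose after both antibodies (log2 change 3.52 after anti-DCIR2-BDC, 2.70 after anti-DEC205-BDC). Bhlhe40, a repressor of Il10 in effector T cells, rose by 1.61 after anti-DCIR2-BDC and 1.01 after anti-DEC205-BDC on the log2 scale, the second call being lost when DEC205 array 2 or PBS array 2 was left out and in the test of all probe sets (adjusted p up to 0.0578). Myb, a factor of memory and regulatory T cells, had 6.70 and 6.75 in anti-DCIR2-BDC arrays, 7.97 and 7.92 in anti-DEC205-BDC arrays, and 6.03 and 6.55 in PBS arrays, and rose after anti-DEC205-BDC (1.66, adjusted p = 0.00145). Its difference between the antibodies, -1.22, did not pass (adjusted p = 0.147). Foxo1, which maintains naive T cells, fell after anti-DCIR2-BDC (-1.24, adjusted p = 0.00182) and stood at -0.68 after anti-DEC205-BDC (adjusted p = 0.0702). The median of the list was -0.05 after anti-DCIR2-BDC and 0.04 after anti-DEC205-BDC.

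**Figure D3:**
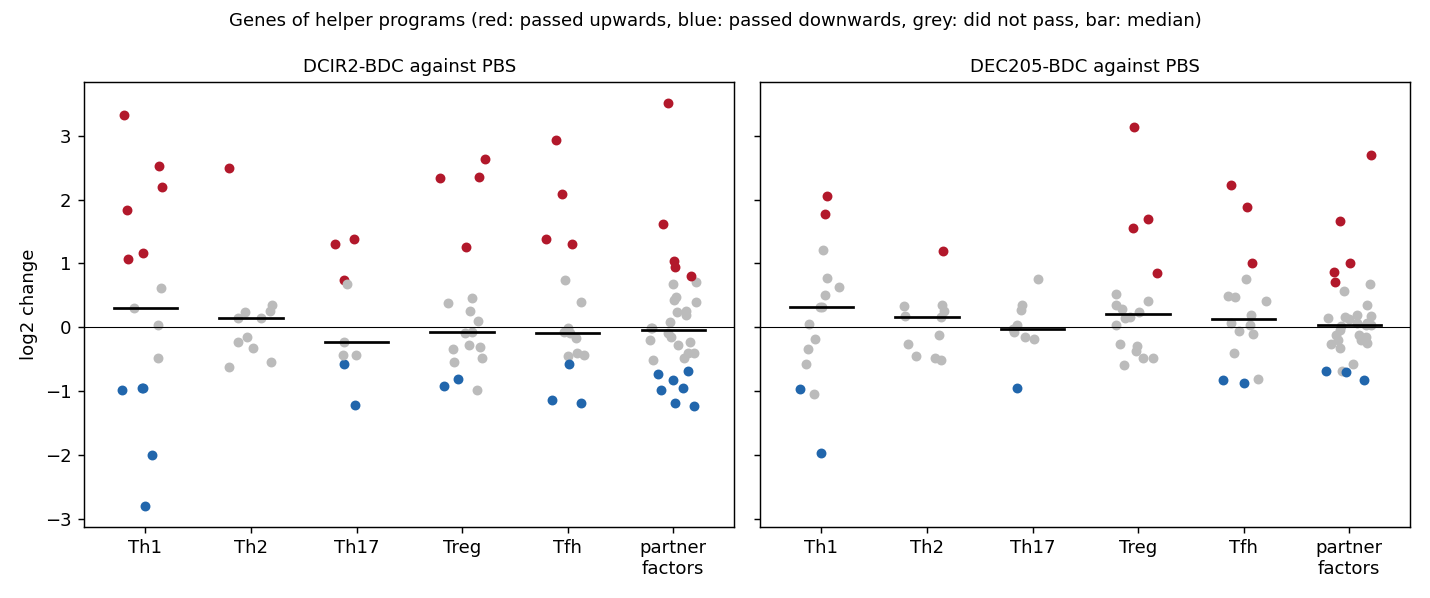
Log2 changes (vertical axis) of the genes of 5 helper programs and of the partner factors after anti-DCIR2-BDC (left) and anti-DEC205-BDC (right) against PBS; red and blue points passed upwards and downwards, grey points did not pass, and bars are list medians. Medians lie between -0.24 and 0.31, while single genes reach 3.52 (Irf4) and -2.81 (Il18r1), both after anti-DCIR2-BDC.

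Markers of other cells were set beside these results, since Eomes is also a natural killer and CD8 T cell gene, Prdm1 a plasma cell gene and Maf a macrophage gene. The summed level of 8 natural killer cell markers, on the log2 scale, was 8.63 and 8.79 in anti-DCIR2-BDC arrays, 8.92 and 8.77 in anti-DEC205-BDC arrays, and 9.68 and 9.51 in PBS arrays. It was thus lower in both antibody groups, where Eomes was higher and Prdm1 lower, and its part in these results was not tested. Of the 8 markers 4 had means below the olfactory 95% point of 5.23. Gzma was among them, and lay above that point in PBS array 1 (5.81) only. Of the 8 markers 3 fell after anti-DCIR2-BDC (Klrd1, Gzma and Prf1), beside 7.82% of all genes. After anti-DEC205-BDC 2 fell (Klrd1 and Prf1), beside 3.53%, and 0 rose after either antibody. Klrd1 changed by -2.62 after anti-DCIR2-BDC and -1.54 after anti-DEC205-BDC, the second call being lost without PBS array 2 (change -1.39, adjusted p = 0.0711) or in the test of all probe sets (0.126). Without DEC205 array 2 the second change was -0.92. Gzma was lost without DCIR2 array 1, DCIR2 array 2 or PBS array 1 or with every probe set (adjusted p up to 0.18), and its change was -0.55 without PBS array 1 and -1.74 without PBS array 2. Prf1 was lost after anti-DCIR2-BDC without DCIR2 array 1 (adjusted p = 0.0536) and after anti-DEC205-BDC when DEC205 array 1 was left out or every probe set was tested (up to 0.0648).

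The 14 macrophage and dendritic cell markers summed to between 9.27 and 9.42 in anti-DCIR2-BDC arrays, 9.53 and 9.65 in anti-DEC205-BDC arrays, and 9.62 and 9.63 in PBS arrays, and 0 of 14 passed in either direction. The 7 plasma cell markers summed to 10.19 and 10.53 in anti-DCIR2-BDC arrays, 9.67 and 9.85 in anti-DEC205-BDC arrays, and 8.64 and 8.59 in PBS arrays. Irf4, which activated T cells also express, was the 1 member of that list that passed. It had 9.78 and 10.24 in anti-DCIR2-BDC arrays, 9.06 and 9.31 in anti-DEC205-BDC arrays, and 6.46 and 6.51 in PBS arrays. The rise of the summed level thus largely follows this gene. The plasma cell gene Jchain lay between 4.23 and 4.95 in all 6 arrays. CD8 T cell markers summed to between 7.83 and 8.24 and B cell markers to between 7.78 and 8.14 over all arrays. The summed level of 11 T cell identity genes was 13.52 and 13.54 in anti-DCIR2-BDC arrays, 13.96 and 13.85 in anti-DEC205-BDC arrays, and 14.20 and 14.26 in PBS arrays. After anti-DCIR2-BDC 7 of 11 fell, beside 7.82% of all genes, among them Cd3g (-1.24), Cd2 (-1.15) and Trat1 (-1.72). Zap70, a kinase of T cell receptor signalling, rose after anti-DCIR2-BDC (1.31, adjusted p = 0.00146). After anti-DEC205-BDC 1 of the 11 rose, Zap70 (1.15, adjusted p = 0.0076), and 1 fell, Trat1 (-1.04, adjusted p = 0.0271). Both calls were lost without DEC205 array 2 (adjusted p = 0.0566 for Zap70, 0.143 for Trat1) and with all probe sets tested, and that of Trat1 also without PBS array 1 (0.153). Klrk1 was the 1 CD8 T cell marker that fell after anti-DCIR2-BDC (-0.52), and 0 fell after anti-DEC205-BDC. Its call was lost in 7 of 15 alternatives, among them leaving out DCIR2 array 2 (-0.35), PBS array 1 or PBS array 2. Fewer cells of a type and less RNA per cell cannot be told apart in such bulk samples.

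**Figure D4:**
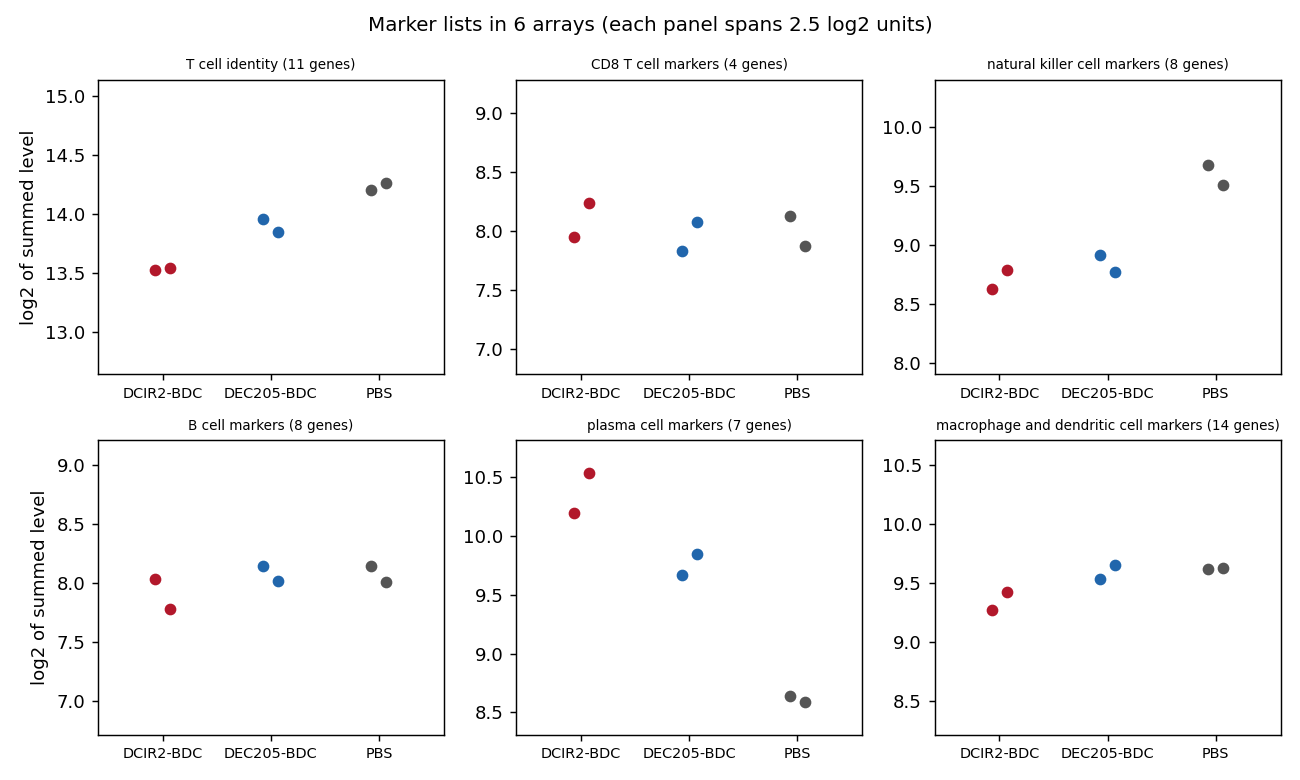
Log2 of the summed level (vertical axis) of 6 marker lists in the 3 groups; points are arrays 1 and 2. Natural killer cell markers and T cell identity genes are lower in both antibody groups than in PBS. The plasma cell list, in which only Irf4 passed, is higher, and the CD8 T cell and B cell lists overlap between groups.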

How the data were processed

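Total RNA of sorted T cells (5 ng, isolated with a PicoPure kit) was amplified with a NuGen Ovation pico kit and labelled with biotin, per the labels' protocols. The authors preprocessed the arrays with RMA in Partek to log2 values, one per probe set and array, per the submitters' processing notes, which name no version. The 35556 probe sets held values from 2.15 to 13.86. The platform annotation gave 21789 of them 1 symbol, and 1621 with several and 12146 unnamed here were left out. The probe set with the highest mean was kept, which left 19938 genes.

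Comparisons used limma 3.58.1 under R 4.3.3, fitting the 6 arrays together with a mean for each group, a trended prior variance and Benjamini-Hochberg adjustment over all genes, at a threshold of 0.05, two-sided. The median 95% interval reached 0.388 to either side, as few arrays limit the precision, and p-values measure the spread between these samples. The members, lists and tests were chosen with earlier results of these data known. From each list up to 4 genes with the largest change against PBS were named, passing ones first. Single marker genes beyond those, Cd3e, Cd4, Ncr1, Klrb1c, Ms4a1, Cd79b and Jchain, were chosen after their values were seen. Promoters come from RefSeq (GRCm38.p6). Replicate numbers do not enter the fit: deviations of same-numbered arrays from their group means correlated at 0.071 to 0.145. The fit was tested on simulated data with 100 genes changed 2-fold and 100 changed 4-fold in each comparison. It recovered 39 to 53% of the 2-fold and 85 to 92% of the 4-fold changes, with 0 to 6 false calls. A gene that did not pass may therefore still have changed. In the data 3568 and 1763 genes passed against PBS and 4 between the antibodies, unlike the simulation. The adjustment depends on such numbers, so the recovered shares need not hold for these comparisons. An item withheld for evaluation is not reported here.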

Additional observations from a re-analysis of the deposited data

How the results depend on the processing

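Each of the 27 changes of members was recomputed in up to 17 alternatives, and for the filters on dim genes Prdm1 had no value. Of 453 recomputed changes 414 kept direction and call, 24 lost the call, 5 gained it and 10 turned direction. The number of members that passed after anti-DEC205-BDC against PBS was 3, but 0 with every probe set, 1 with only the 4 arrays compared, 4 with quantile normalization or without the dimmest 50% of genes, and 1 to 3 with 1 array left out, the other alternatives giving 2 or 3. After anti-DCIR2-BDC it was 3, but 1 with every probe set and 2 without the dimmest 30% or 50% of genes. It was also lower in some fits with 1 array left out. Between the antibodies it was 0 throughout. An arm left with 1 array is assumed to vary like the other groups. With the replicate block 3 members passed after each antibody and 0 between them, as reported. Of all genes 3568 passed after anti-DCIR2-BDC (3885 with the block, 3375 with every probe set, 2090 to 3637 with 1 array left out). After anti-DEC205-BDC 1763 passed (2069 with the block, 694 with every probe set, 997 to 1367 with 1 array left out), and between the antibodies 4 (2, 0, and 0 to 27). All turned directions were of changes that had not passed. With 1 array left out, Gata3 against PBS ran from -0.01 to 0.51 after anti-DCIR2-BDC and from -0.12 to 0.39 after anti-DEC205-BDC, both lowest without PBS array 1. Between the antibodies Rora ran from -0.05 to 0.17 and Foxp3 from -0.11 to 0.22, both lowest without DCIR2 array 1, Prdm1 from -0.13 (without DCIR2 array 2) to 0.15, and Maf from -0.23 (without DEC205 array 2) to 0.32. With quantile normalization Gata3 was at -0.01 and Foxp3 at -0.05. Of the 45 passing changes of named list genes, 31 kept the call in every alternative run, a check added after seeing the data. The cause of these differences was not tested.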

Other observations

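Known targets of the factors that passed were looked up after the values of the members had been seen, so they are described without a further test. The first set holds genes that the aryl hydrocarbon receptor induces in many tissues. Cyp1a1 had 4.43 and 4.41 in anti-DCIR2-BDC arrays, 4.34 and 4.31 in anti-DEC205-BDC arrays, and 4.53 and 4.49 in PBS arrays, below the olfactory 95% point of 5.23 throughout. Cyp1b1, Ahrr and Nqo1 also stayed below that point, between 3.88 and 4.72. Tiparp, a target that lay above it, had 5.97 and 6.17 in anti-DCIR2-BDC arrays, 5.94 and 6.07 in anti-DEC205-BDC arrays, and 6.60 and 6.68 in PBS arrays, with log2 changes against PBS of -0.57 after anti-DCIR2-BDC and -0.64 after anti-DEC205-BDC.

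Targets of the T-box factors Eomes and Tbx21 differed in the sign of their log2 changes. The IL-2 receptor gene Il2rb changed by 0.30 after anti-DCIR2-BDC and 0.60 after anti-DEC205-BDC, and Ifng by 1.07 after anti-DCIR2-BDC and 0.63 after anti-DEC205-BDC. In the Th1 list Ifng passed after anti-DCIR2-BDC (limma adjusted p = 0.0423) and not after anti-DEC205-BDC (0.304). Its anti-DEC205-BDC arrays (6.63 and 6.07) overlapped with those of PBS (6.21 and 5.21). Prf1, which encodes perforin, had changes of -0.95 after anti-DCIR2-BDC and -0.97 after anti-DEC205-BDC. The chemokine receptor gene Cxcr3 had 6.82 and 6.69 in anti-DCIR2-BDC arrays, 7.60 and 6.18 in anti-DEC205-BDC arrays, and 7.56 and 6.93 in PBS arrays. Among genes that Blimp-1 represses, Il2 had 10.40 and 10.62 in anti-DCIR2-BDC arrays, 8.44 and 9.09 in anti-DEC205-BDC arrays, and 4.65 and 5.75 in PBS arrays, where it was not clear of the olfactory 95% point. Myc (2.74 after anti-DCIR2-BDC, 2.06 after anti-DEC205-BDC) was higher and Fos (-1.18 after anti-DCIR2-BDC, -0.78 after anti-DEC205-BDC) and Ciita (-0.32 after anti-DCIR2-BDC, -0.26 after anti-DEC205-BDC) lower than in PBS. The arrays of Ciita lay between 5.06 and 5.49, on both sides of the olfactory 95% point of 5.23, so its differences are small and near the dim end.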
